A study of Mus musculus with 23 samples.

Results

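The comparison described here sets 3 bone marrow-derived macrophage libraries labelled Selenow knock-out against 3 wild-type libraries, all after 8 h of lipopolysaccharide (LPS) at 100 ng/ml. The members are the 6 libraries whose titles carry both the genotype and the 8 h time point, of 23 libraries in the whole series, and all genes of the count table were considered. The labelled knock-out libraries are numbers 19, 20 and 21, and the wild-type libraries are numbers 7, 8 and 9. The series also holds both genotypes untreated (0 h) and after 4 and 24 h of LPS. The labels name the macrophages' origin as bone marrow of knock-out and wild-type mice, and give neither strain, sex nor age. Nor do they say whether libraries of a group came from separate animals or cultures, so the p-values measure the spread between these libraries, which may be technical.

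Selenoprotein W, the product of Selenow, is a small selenoprotein of the thioredoxin-like fold family, whose selenocysteine sits in a redox motif. Macrophages detect LPS through Toll-like receptor 4, which first switches on immediate early genes, cytokines and chemokines and then, through type I interferon, a large set of antiviral genes. Feedback phosphatases, RNA-binding proteins and inhibitors of cytokine signalling bring the first wave back down over the following hours, and the heavy load of secreted protein engages the chaperones of the endoplasmic reticulum.

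The 6 libraries held between 39001456 and 41604930 counted read pairs, and a gene with no read in a library could have stood at up to 0.0903 CPM there (3 counts, counting error only). CPM is the count of a gene per 1000000 counted read pairs, after TMM scaling of the libraries. Library 20 of the labelled knock-out group and library 9 of the wild-type group stood apart from the other 4: over 10415 genes, their deviations from the means of their own groups correlated at 0.77 (Pearson, a description across genes). Libraries with that profile were found at every time of the series, and they are called the second library set; at 8 h the first set is libraries 19 and 21 with libraries 7 and 8. Nothing in the labels names the sets. Within the first set, the deviations of library 7 correlated at 0.22, 0.44 and 0.20 with those of libraries 19, 21 and 8. The sets were read off these same libraries, so p-values from fits that use them can be too small. The macrophage markers were high in all 6 libraries, with a summed level of 20380, 15520 and 19620 CPM over 10 genes in labelled knock-out libraries 19, 20 and 21, against 15970, 17320 and 13780 CPM in wild-type libraries 7, 8 and 9.

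Selenow itself, on the minus strand of chr7:15917208-15922402 (GRCm38), measured 260, 135 and 125 CPM in labelled knock-out libraries 19, 20 and 21, against 303, 319 and 327 CPM in wild-type libraries 7, 8 and 9. Library 19 therefore kept 82.4% of the wild-type mean, where libraries 20 and 21 kept 42.6% and 39.4%, and the level of library 19 goes against its label. All 3 labelled knock-out libraries lay below all 3 wild-type libraries. The log2 difference of -0.87 ± 0.37 (SE, n = 3 each) did not pass the test, with an adjusted p of 0.288 by edgeR's quasi-likelihood test with Benjamini-Hochberg adjustment. Labelled knock-out libraries 13, 16 and 22 of 0, 4 and 24 h likewise held 88%, 98.1% and 102% of the mean of the wild-type libraries of the same time. Without those 3 and library 19 the log2 difference at 8 h was -1.29 (adjusted p = 5.744e-05, edgeR). These libraries were singled out by their Selenow levels, so this p-value is no test of Selenow. Every direction below is therefore one between the libraries as labelled. Reads on a gene can persist where a deletion leaves part of its transcript, and which exons were removed is not given in the labels.

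At 8 h, 397 of 18083 genes tested (2.2%) differed between the labelled knock-out and wild-type libraries at an adjusted p under 0.05, of which 144 were higher (0.796%) and 253 lower (1.4%) in the labelled knock-out. In 394 of the 397 the 3 libraries of one group did not overlap with those of the other, where 21.4% of all tested genes showed no overlap. The difference reached 2-fold in 74 of the higher and 167 of the lower genes, and the median size of the called log2 differences was 1.25. Protein-coding genes made up 300 of the calls and pseudogenes 44. The median log2 difference over all tested genes was 0.0027. Leaving out 1 library at a time gave between 226 and 446 calls: 227 without library 19, 254 without library 21 and 226 without library 7. Without labelled knock-out libraries 13, 16, 19 and 22 there were 179 calls, 172 of them among the 397. Named genes that lost their call without these 4 libraries were Cav1, Fgd2, Cxcl1, Hbegf, Selenok, Cish, Dusp1, Klf4, Chil3, mt-Atp6, Cd300lf, Ppp1r15a, Ddit3, Nr4a1, Camp, Hba-a1, Fabp4, Ryr1, Wtap and Hmga1.

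**Figure D1:**
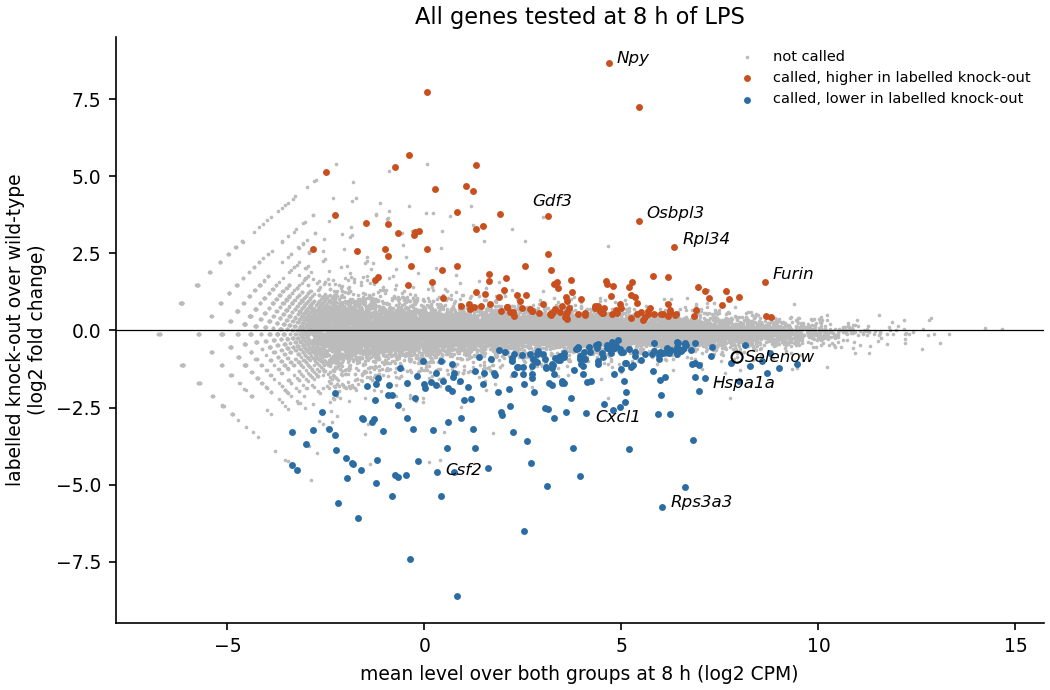
Each point is a tested gene, with its mean level (log2 CPM) on the horizontal axis and its log2 difference, labelled knock-out over wild-type at 8 h, on the vertical axis. The 144 genes called higher are orange, the 253 called lower blue and the rest grey, Selenow is circled, and genes with no read in a group are not drawn; calls lie at all levels on both sides.

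Npy, Gdf3, Osbpl3 and Rpl34 had the largest rises in the labelled knock-out among the named genes with a mean of 5 CPM or more. Npy, which encodes the secreted neuropeptide Y (chr6:49822710-49829507, plus strand), stood at 69.5, 23.3 and 60.6 CPM in labelled knock-out libraries 19, 20 and 21, against 0.0903, 0.17 and 0.118 CPM in wild-type libraries 7, 8 and 9. Every labelled knock-out library, library 19 included, was far above every wild-type library. The log2 difference was 8.66 ± 0.55 (SE, n = 3 each; adjusted p = 5.11e-09, edgeR). Gdf3, a growth factor of the TGF-beta family, measured 21.9, 7.53 and 19.2 CPM in the labelled knock-out against 1.14, 1.02 and 1.53 CPM in wild-type libraries (log2 difference 3.72 ± 0.51, adjusted p = 0.000178). In both genes library 20 was the lowest of its group.

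Osbpl3, an oxysterol-binding protein relative that moves lipids between membranes, was at 90, 69.1 and 79.8 CPM in the labelled knock-out, against 6.77, 9.97 and 3.56 CPM in wild-type libraries. The log2 difference was 3.56 ± 0.48 (adjusted p = 0.000126, edgeR) and the groups did not overlap. Itga6, the alpha subunit of a laminin-binding integrin, measured 121, 98.5 and 116 CPM against 36.2, 29.6 and 35.8 CPM in wild-type (log2 difference 1.72 ± 0.25, adjusted p = 0.000325). Cav1, the coat protein of caveolae, measured 86.4, 72.1 and 100 CPM against 27.6, 24.8 and 24.4 CPM in wild-type (1.75 ± 0.34, adjusted p = 0.00628). Cav1 was above wild-type in all 3 labelled knock-out libraries, and its call was lost without labelled knock-out libraries 13, 16, 19 and 22 (adjusted p = 0.0606). Synj2, a phosphoinositide phosphatase, measured 39.5, 27.9 and 41.5 CPM against 11.9, 14.7 and 9.53 CPM in wild-type (log2 difference 1.59 ± 0.20, adjusted p = 6.28e-05).

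A further group of rises came from neighbouring genes on chromosome 7, over 60 Mb from Selenow. Furin, a convertase that cleaves proproteins in the secretory pathway (chr7:80388585-80405436, minus strand), measured 507, 808 and 476 CPM in labelled knock-out libraries 19, 20 and 21, against 222, 150 and 228 CPM in wild-type libraries 7, 8 and 9. Fes, a cytoplasmic tyrosine kinase of myeloid cells (chr7:80377756-80387946, minus strand), measured 181, 189 and 169 CPM against 68.5, 66.2 and 69.1 CPM in wild-type. Sema4b, a membrane semaphorin (chr7:80186841-80226527, plus strand), measured 20.7, 21.6 and 17.5 CPM against 6.08, 6.37 and 6.88 CPM in wild-type. All 3 genes were separated without overlap, and Fes and Sema4b varied little within each group. The log2 differences were 1.58 ± 0.25 for Furin (adjusted p = 0.000925), 1.40 ± 0.11 for Fes (1.52e-07) and 1.63 ± 0.24 for Sema4b (0.000325). Between 80 and 90 Mb of chromosome 7, 12 of 75 tested genes (16%) were called.

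Of the remaining rises, Mcub, a subunit that dampens calcium uptake by the mitochondrial uniporter, measured 41.4, 38.8 and 40.5 CPM in the labelled knock-out against 15.3, 15.3 and 14.1 CPM in wild-type (log2 difference 1.43 ± 0.13, adjusted p = 9.8e-07, edgeR). Fkbp9, a prolyl isomerase of the endoplasmic reticulum, measured 9.83, 9.76 and 9.04 CPM against 2.29, 2.41 and 2.03 CPM in wild-type (2.09 ± 0.20, adjusted p = 1.19e-06). Both were nearly constant within their groups. Qpct, the enzyme that forms pyroglutamate at protein ends, measured 12.2, 19.5 and 12.6 CPM against 3.22, 3.4 and 4.68 CPM in wild-type (1.97 ± 0.31, adjusted p = 0.000846). Fgd2, an exchange factor for the GTPase Cdc42, measured 15.6, 19.8 and 10.8 CPM against 3.67, 4.28 and 7.5 CPM in wild-type (1.58 ± 0.40, adjusted p = 0.0446). The call of Fgd2 was lost without library 19, 20, 7 or 8, with adjusted p between 0.1226 and 0.2551. Gsdme, a gasdermin whose cleaved form opens pores in the cell membrane, measured 3.52, 3.41 and 3.43 CPM against 1.41, 1.64 and 1.32 CPM in wild-type (1.24 ± 0.22, adjusted p = 0.00251).

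Apart from the gene copies described further on, Cited4, Arc, Kitl and Steap3 had the largest falls among the genes with a mean of 5 CPM or more that the naming rule took. Cited4, a cofactor of CBP and p300, measured 0.746, 1.02 and 1.04 CPM in labelled knock-out libraries 19, 20 and 21, against 16.8, 9.94 and 6.62 CPM in wild-type libraries 7, 8 and 9 (log2 difference -3.57 ± 0.40, adjusted p = 1.51e-05, edgeR). Kitl, the stem cell factor that binds the receptor Kit, measured 2.45, 2.31 and 2.66 CPM against 14.5, 11.5 and 16.2 CPM in wild-type (-2.51 ± 0.31, adjusted p = 5.88e-05). The groups were wide apart for both genes. Hbegf, a growth factor that binds the EGF receptor, measured 2.77, 1.99 and 3.62 CPM against 14.6, 10.7 and 7.79 CPM in wild-type (-1.98 ± 0.44, adjusted p = 0.0171). The call of Hbegf was lost without library 19, 20 or 7, with adjusted p between 0.07126 and 0.1095. Arc, a gene best known from activated neurons, measured 2.58, 1.32 and 3.76 CPM against 20.2, 11 and 13.7 CPM in wild-type (-2.55 ± 0.33, adjusted p = 7.18e-05).

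Steap3, a ferrireductase of endosomes, measured 11.4, 6.53 and 10.7 CPM in the labelled knock-out against 70.6, 34.4 and 54.8 CPM in wild-type (log2 difference -2.48 ± 0.36, adjusted p = 0.000351, edgeR). Mid1, an X-linked microtubule-associated ubiquitin ligase, measured 8.82, 17.6 and 7.72 CPM against 57.6, 42.5 and 70.2 CPM in wild-type (-2.32 ± 0.29, adjusted p = 7.07e-05). In Mid1 the second-set libraries 20 and 9 were each the highest of their group. Camk2b, a subunit of the calcium/calmodulin-dependent kinase II, measured 4.71, 4.79 and 4.7 CPM against 21.1, 15.8 and 28.5 CPM in wild-type (-2.21 ± 0.31, adjusted p = 0.000227). Wdfy1, an endosomal adaptor in Toll-like receptor signalling, measured 24.7, 24.7 and 23.7 CPM against 124, 65.8 and 124 CPM in wild-type (-2.10 ± 0.30, adjusted p = 0.000243). Both varied far less among the labelled knock-out libraries than among wild-type. Colec12, a collectin that acts as a scavenger receptor, measured 4.02, 4.36 and 4.39 CPM against 15.4, 13 and 14.9 CPM in wild-type (-1.76 ± 0.19, adjusted p = 1.21e-05).

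**Figure D2:**
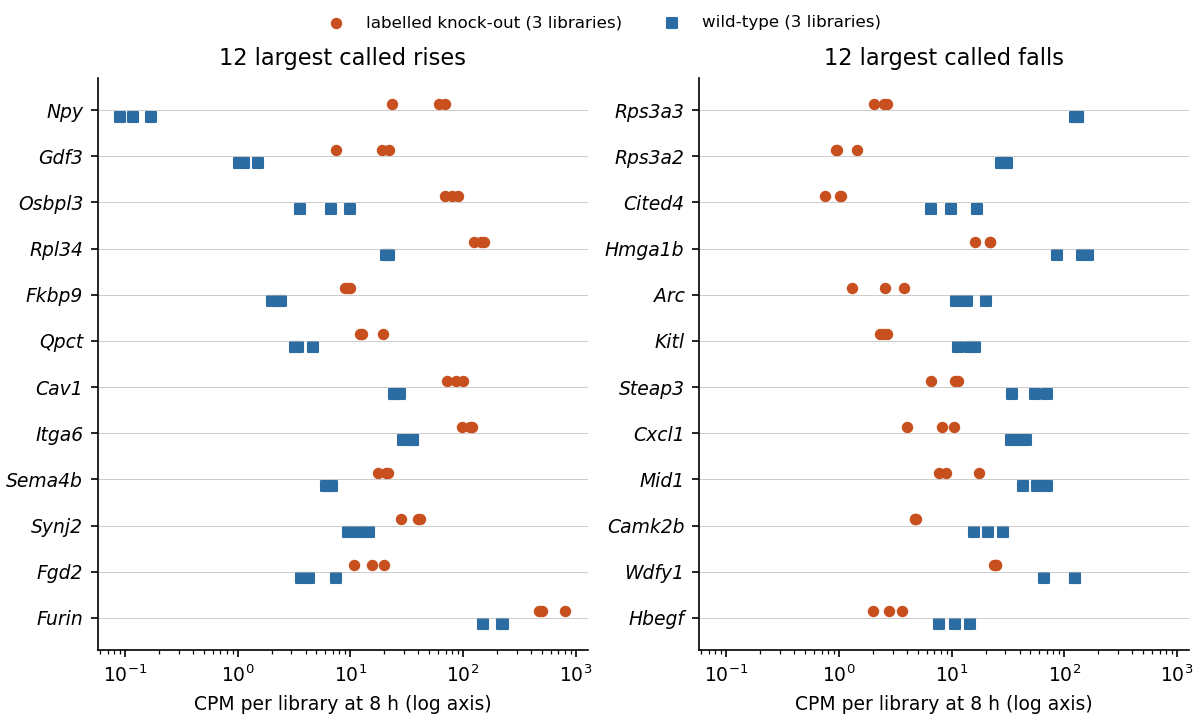
Levels in each of the 6 libraries (CPM, log axis) of the 12 genes with the largest rises and the 12 with the largest falls among called genes of a mean level no lower than 5 CPM whose groups stayed apart, leaving out predicted-locus names and names marked as pseudogenes, labelled knock-out as circles above wild-type as squares. Npy shows the widest gap, with 23.3 to 69.5 CPM in the labelled knock-out and 0.0903 to 0.17 CPM in wild-type.

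Several of the strongest calls were processed copies of a gene, or the gene such copies derive from. Counting took only reads with 1 alignment, so a read counts for a copy where it holds a base by which the copies differ. Rps3a3 and Rps3a2, copies of the small ribosomal subunit gene Rps3a1, fell to 2.69, 2.04 and 2.53 CPM and to 0.932, 0.968 and 1.46 CPM in labelled knock-out libraries 19, 20 and 21, against 124, 131 and 132 CPM and 27.5, 29.9 and 31.2 CPM in wild-type libraries 7, 8 and 9. Rps3a1 itself rose, at 342, 336 and 345 CPM in the labelled knock-out against 150, 175 and 162 CPM in wild-type. The log2 differences were -5.74 ± 0.16 for Rps3a3 (adjusted p = 2.45e-14), -4.72 ± 0.20 for Rps3a2 (8.25e-12) and 1.07 ± 0.11 for Rps3a1 (2.57e-06; edgeR). Summed over the 7 genes of the family, the mean was 347.7 CPM in the labelled knock-out and 323.4 CPM in wild-type, a log2 difference of 0.10. Rps3a3 matched Rps3a1 at 98.9% of 795 aligned bases and Rps3a2 at 99.5% of 792. Stretches of their coding sequence are shown because they hold bases by which the copies can be told apart: lower case is the sequence of Rps3a1 (GENCODE transcripts on GRCm38; chr3:86141318-86141407, minus strand), and capitals mark the bases of Rps3a3 (chr13:108670788-108670877, plus strand) and Rps3a2 (chr14:88123534-88123623, minus strand) that differ from it.
Rps3a1: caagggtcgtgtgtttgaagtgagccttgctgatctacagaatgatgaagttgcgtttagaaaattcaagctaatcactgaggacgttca
Rps3a3: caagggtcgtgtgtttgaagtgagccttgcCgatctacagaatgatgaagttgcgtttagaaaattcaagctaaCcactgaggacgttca
Rps3a2: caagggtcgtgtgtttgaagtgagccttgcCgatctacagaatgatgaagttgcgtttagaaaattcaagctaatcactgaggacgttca

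Rps3a1, and the pseudogenes and predicted names below, were named after their values were seen. Atp6v0c, the proton-pore subunit of the vacuolar ATPase, measured 318, 236 and 307 CPM in labelled knock-out libraries 19, 20 and 21, against 131, 129 and 96.4 CPM in wild-type libraries 7, 8 and 9, and its copy Atp6v0c-ps2 measured 6.69, 3.74 and 6.48 CPM against 205, 216 and 151 CPM. Their sum with the family's other copies was 292.8 CPM in the labelled knock-out and 309.6 CPM in wild-type, so the opposite differences cancelled. Capza1, an actin-capping subunit, measured 199, 195 and 199 CPM against 83.9, 74 and 87.6 CPM in wild-type, and its copy Gm3608 measured 15.9, 14.8 and 17.1 CPM against 108, 94.2 and 114 CPM. Their family summed to 215.3 CPM in the labelled knock-out and 189.4 CPM in wild-type. The log2 differences were 1.27 ± 0.16 for Atp6v0c (adjusted p = 5.83e-05) and 1.27 ± 0.09 for Capza1 (1.26e-08; edgeR). The stretches below (GENCODE transcripts, GRCm38) show single bases that separate each copy, in capitals, from its gene: Atp6v0c at chr17:24164823-24164882 (minus strand), Atp6v0c-ps2 at chr6:37806165-37806224 (plus), Capza1 at chr3:104834117-104834176 (minus) and Gm3608 at chr1:105456489-105456548 (plus).
Atp6v0c: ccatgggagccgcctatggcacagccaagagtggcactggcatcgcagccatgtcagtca
Atp6v0c-ps2: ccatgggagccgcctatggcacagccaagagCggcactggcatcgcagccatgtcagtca
Capza1: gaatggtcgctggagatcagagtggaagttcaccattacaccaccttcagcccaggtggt
Gm3608: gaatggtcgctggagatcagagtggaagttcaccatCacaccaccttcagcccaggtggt

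Hmga1b, a copy of the chromatin protein gene Hmga1, measured 21.9, 16 and 22 CPM in the labelled knock-out against 162, 144 and 86.8 CPM in wild-type (log2 difference -2.71 ± 0.27, adjusted p = 2.57e-06, edgeR), while Hmga1 measured 214, 161 and 231 CPM against 120, 104 and 67.4 CPM. The 2 genes summed to 221.9 CPM in the labelled knock-out and 227.5 CPM in wild-type. Hmga1 was called (1.06 ± 0.25, adjusted p = 0.025), and lost the call without library 19, 21, 8 or 9, with adjusted p between 0.05194 and 0.1188. Ndufs5, a subunit of respiratory complex I, measured 18.5, 18.7 and 18.8 CPM against 7.04, 7.34 and 9.5 CPM in wild-type, and its copy BC002163 measured 0.16, 0.161 and 0.0549 CPM against 10.9, 11.3 and 11.9 CPM. Their sum was 18.8 CPM in the labelled knock-out and 19.3 CPM in wild-type.

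The sums did not cancel in every family. Rpl34, a protein of the large ribosomal subunit and the rise with the smallest adjusted p of the 144, measured 145, 124 and 152 CPM in labelled knock-out libraries 19, 20 and 21, against 20.6, 22.2 and 21.4 CPM in wild-type libraries 7, 8 and 9 (log2 difference 2.71 ± 0.12, adjusted p = 1.41e-11, edgeR). Its copy Rpl34-ps1 measured 15.1, 12 and 14.3 CPM against 53.5, 57.2 and 54.8 CPM, and the family summed to 157.6 CPM in the labelled knock-out and 79.14 CPM in wild-type, a log2 difference of 0.99. Rnps1, a splicing regulator of the exon junction complex, measured 57.8, 58 and 58.4 CPM against 18.9, 20.5 and 19.4 CPM in wild-type (1.57 ± 0.11, adjusted p = 1.9e-08), and its family summed to 58.56 CPM against 36.43 CPM, a log2 difference of 0.68. The Rpl34 stretch lies at chr3:130729069-130729128 (minus strand) and that of Rpl34-ps1 at chr6:71124697-71124756 (plus strand), with the differing base of the copy in capitals.
Rpl34: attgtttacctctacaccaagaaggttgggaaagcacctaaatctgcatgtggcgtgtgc
Rpl34-ps1: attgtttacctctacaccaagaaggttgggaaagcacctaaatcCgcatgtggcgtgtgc

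Among all called genes with a transcript to compare, 101 of 396 (25.5%) had a copy of at least 95% identity over at least 200 bases and 50% of the shorter transcript, against 2883 of 18045 tested genes (16%). A copy was called in the opposite direction for 26 of the 101. The sum over copies differed by less than 0.5 on the log2 scale for 41 of them, where the gene's own difference was that small for 3. For such genes a difference in the gene's RNA and a difference in which copy its reads align to cannot be told apart from counts.

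**Figure D3:**
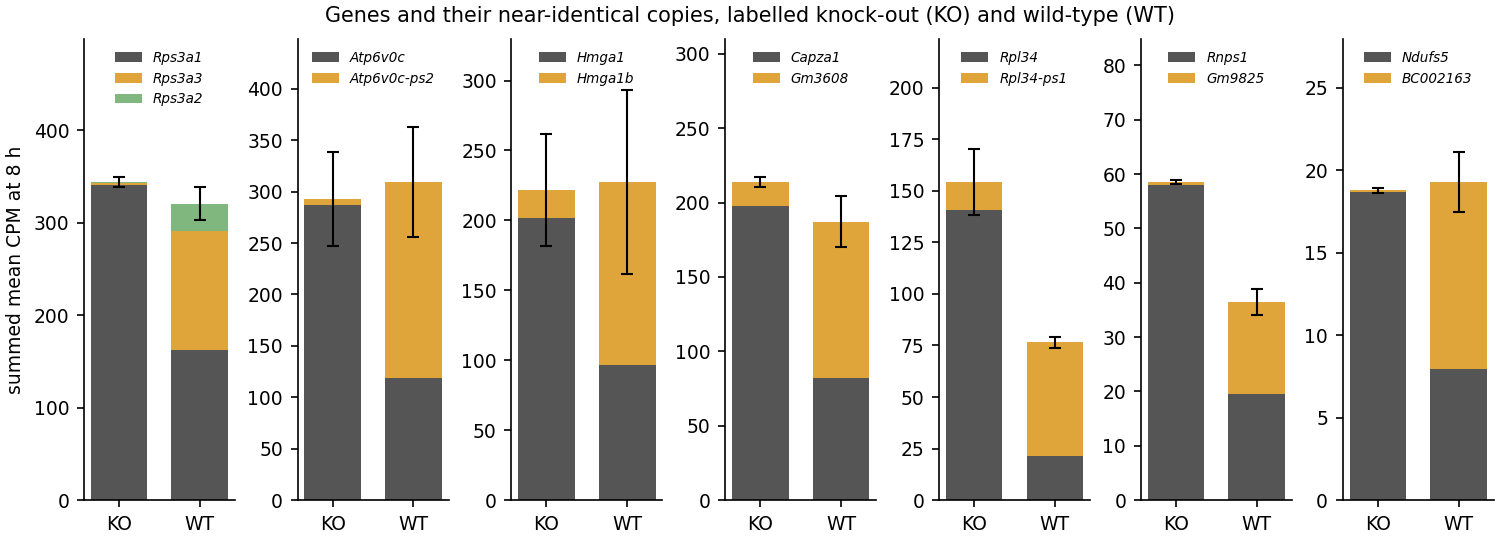
Stacked bars give mean levels (CPM, axis from 0) of a gene and the near-identical copies named in each panel, labelled knock-out left of wild-type. Error bars are the SD of the drawn sum (n = 3 libraries each). Rps3a1, Atp6v0c, Hmga1 and Ndufs5 bars reach like heights in both groups with different makeups, while the Rpl34 bars do not. With copies that are not drawn, the Rpl34 family sums to 157.6 CPM in the labelled knock-out and 79.14 CPM in wild-type.

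Most inflammatory genes were not called at 8 h. Of 25 cytokine genes tested, 2 fell and none rose (median log2 difference -0.41), and of 22 chemokine genes 1 fell and none rose (-0.38). Over all tested genes 1.4% fell and 0.796% rose. Csf2, the granulocyte-macrophage growth factor GM-CSF, measured 0.0799, 0.188 and 0.0275 CPM in labelled knock-out libraries 19, 20 and 21, against 1.72, 1.05 and 4.44 CPM in wild-type libraries 7, 8 and 9 (log2 difference -4.60 ± 0.76, adjusted p = 0.00177, edgeR). Osm, the IL-6 family cytokine oncostatin M, measured 29.7, 31.7 and 34 CPM against 90.4, 75.5 and 72.6 CPM in wild-type (-1.32 ± 0.17, adjusted p = 7.37e-05). Cxcl1, which attracts neutrophils, measured 10.4, 4.03 and 8.16 CPM against 33.3, 39 and 45.5 CPM in wild-type (-2.38 ± 0.56, adjusted p = 0.026). All 3 lay lower in every labelled knock-out library than in any wild-type one. The call of Cxcl1 was lost without library 19, 20, 21, 7 or 9, with adjusted p between 0.05605 and 0.101.

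In 2 further cytokine genes the library sets differed. Il6 (named after its values were seen) measured 17.4, 102 and 18.5 CPM in labelled knock-out libraries 19, 20 and 21, against 68.3, 41 and 226 CPM in wild-type libraries 7, 8 and 9, so library 20 exceeded libraries 7 and 8. The log2 difference of -1.28 ± 0.83 was not called (adjusted p = 0.543, edgeR), and with a term for the library set it was -1.44 (adjusted p = 0.00101). Tnf, likewise named after its values were seen, measured 277, 719 and 257 CPM against 291, 273 and 673 CPM in wild-type, with a log2 difference of 0.02 ± 0.48 (adjusted p = 0.993). In both genes the second-set library was the highest of its group. With the set term, 10 of the 25 cytokine genes were called lower and none higher, where 16.2% of all tested genes were called and 8.28% called lower. P-values with the set term can be too small, here and below, because the sets were found in the same data.

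Of 23 feedback regulators of NF-kB and cytokine signalling, 2 fell, where 1.4% of all tested genes fell. Cish, an inhibitor of JAK-STAT signalling, measured 2.34, 4.87 and 2.28 CPM in labelled knock-out libraries 19, 20 and 21, against 7.07, 4.99 and 9.32 CPM in wild-type libraries 7, 8 and 9 (log2 difference -1.17 ± 0.30, adjusted p = 0.0421, edgeR). Dusp1, the phosphatase that switches off p38 and JNK, measured 232, 304 and 236 CPM against 538, 446 and 539 CPM in wild-type (-0.98 ± 0.24, adjusted p = 0.0369). Leaving out library 19, 21, 7 or 9 ended both calls, with adjusted p between 0.132 and 0.2366 for Cish and between 0.1004 and 0.1847 for Dusp1. Dusp10, a phosphatase of the same family that lies in none of the lists, measured 5.3, 5.59 and 5.58 CPM against 21.1, 15.1 and 15.3 CPM in wild-type (-1.64 ± 0.18, adjusted p = 1.21e-05) and stayed called when any 1 of the 6 libraries was left out.

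The cytosolic heat shock proteins Hspa1a and Hspa1b, neighbours on chromosome 17 (chr17:34969190-34972156 and chr17:34956436-34959238, minus strand), are near-identical inducible chaperones, so their counts can split between them. Hspa1a measured 59.3, 87.2 and 65.5 CPM in labelled knock-out libraries 19, 20 and 21, against 245, 193 and 185 CPM in wild-type libraries 7, 8 and 9 (log2 difference -1.56 ± 0.20, adjusted p = 8.68e-05, edgeR). Hspa1b measured 50.9, 74.7 and 58.2 CPM against 199, 160 and 162 CPM in wild-type (-1.50 ± 0.21, adjusted p = 0.000186). Both were lower in every labelled knock-out library, and they were the only called members of 14 heat shock chaperones tested (median log2 difference -0.19). Over all tested genes 2.2% were called and 1.4% called lower.

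In the unfolded protein and integrated stress response, 2 of 20 genes fell and none rose (median log2 difference -0.37), where 1.4% of all tested genes fell. Ppp1r15a, the phosphatase subunit that reverses eIF2alpha phosphorylation, measured 74.6, 85.2 and 78.5 CPM in labelled knock-out libraries 19, 20 and 21, against 196, 176 and 148 CPM in wild-type libraries 7, 8 and 9 (-1.12 ± 0.28, adjusted p = 0.0359, edgeR). Ddit3, the transcription factor CHOP, measured 33.2, 41.4 and 34.2 CPM against 64.4, 57.4 and 60.8 CPM in wild-type (-0.75 ± 0.18, adjusted p = 0.0361). No library of one group overlapped with the other in either gene. The call of Ppp1r15a was lost without library 19, 20, 21, 7 or 8 (adjusted p between 0.0671 and 0.1715) and that of Ddit3 without library 19, 21, 7, 8 or 9 (0.05449 to 0.1841). Within the first library set all 20 genes were lower in the labelled knock-out (median log2 difference -0.375), and between libraries 20 and 9 of the second set 19 of 20 were (-0.322). Over all tested genes 8833 were lower and 9223 higher in the first set, and 9086 lower and 8914 higher in the pair. With the set term 18 of the 20 were called lower and in the fit of the first set alone 12 were, where 8.28% of all tested genes were called lower with the set term. Other lists also leaned lower within the sets: 41 of 44 interferon-stimulated genes were lower in the first set and 35 in the pair, and 18 and 20 of 22 S phase genes.

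Several chaperones of the endoplasmic reticulum, named after their values were seen, show this. Hspa5, the chaperone BiP, measured 985, 1391 and 974 CPM in labelled knock-out libraries 19, 20 and 21, against 1556, 1378 and 1961 CPM in wild-type libraries 7, 8 and 9, and was not called (log2 difference -0.55 ± 0.18, adjusted p = 0.137, edgeR; 0.0002301 with the set term). Only library 20, of the second set, overlapped with wild-type. Hsp90b1, Calr, Canx, Pdia6 and Dnajc3, which encode chaperones and folding helpers of the same compartment, had log2 differences between -0.24 and -0.34 that were not called (adjusted p between 0.344 and 0.536; between 0.008794 and 0.03464 with the set term). The ER stress response element, CCAAT and CCACG parted by 9 bases of any kind, on either strand, was found within 250 bases before the start in 6 of the 20 promoters of this list, and in 33 of 27025 promoters overall (0.122%). It was 1 of 3 motifs searched in the promoters of the 3 stress lists. TGATGCAA was found in 3 of the 20 (Atf3, Chac1 and Herpud1; 0.818% overall), and the heat shock element in none of the 20 and in 1 of 10 heat shock chaperone promoters (Hspe1; 0.4% overall). Stretches of those 6 promoters (RefSeq, GRCm38.p6) are shown because they share this element, in capitals; they lie at chr2:34772005-34772064 (plus strand) for Hspa5, chr10:86705512-86705571 (minus) for Hsp90b1, chr8:84847054-84847113 (minus) for Calr, chr11:50325779-50325838 (minus) for Canx, chr12:17266471-17266530 (plus) for Pdia6 and chr14:118937807-118937866 (plus) for Dnajc3. A match describes the letters only, and binding was not measured. The genes were listed as members of this stress response, so their share of matches is no result of these libraries.
Hspa5: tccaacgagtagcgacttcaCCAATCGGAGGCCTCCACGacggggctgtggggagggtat
Hsp90b1: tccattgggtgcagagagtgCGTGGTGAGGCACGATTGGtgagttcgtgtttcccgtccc
Calr: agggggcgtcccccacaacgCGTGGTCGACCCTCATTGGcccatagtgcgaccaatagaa
Canx: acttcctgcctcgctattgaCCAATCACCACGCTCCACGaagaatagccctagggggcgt
Pdia6: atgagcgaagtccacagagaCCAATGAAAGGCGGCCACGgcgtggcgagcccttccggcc
Dnajc3: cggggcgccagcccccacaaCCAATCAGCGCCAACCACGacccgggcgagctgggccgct

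Of 21 immediate early genes, Klf4 and Nr4a1 fell and none rose (median log2 difference -0.40), where 1.4% of all tested genes fell. Klf4, a zinc-finger transcription factor, measured 6.55, 4.52 and 6.81 CPM in labelled knock-out libraries 19, 20 and 21, against 17.2, 12.1 and 9.88 CPM in wild-type libraries 7, 8 and 9 (-1.13 ± 0.24, adjusted p = 0.0135, edgeR). Nr4a1, an orphan nuclear receptor, measured 6.98, 7.8 and 7.2 CPM against 16.6, 16.4 and 10.1 CPM in wild-type (-0.97 ± 0.22, adjusted p = 0.0184). The call of Klf4 was lost without library 20 or 7 (adjusted p between 0.06501 and 0.1258) and that of Nr4a1 without library 19, 21, 7 or 8 (0.06932 to 0.1258). With the set term 14 of the 21 were called lower and none higher (8.28% of all tested genes called lower). Egr1, named after its values were seen, measured 8.9, 16 and 8.68 CPM against 27.4, 20 and 52.2 CPM in wild-type and had an adjusted p of 0.0645 without that term.

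**Figure D4:**
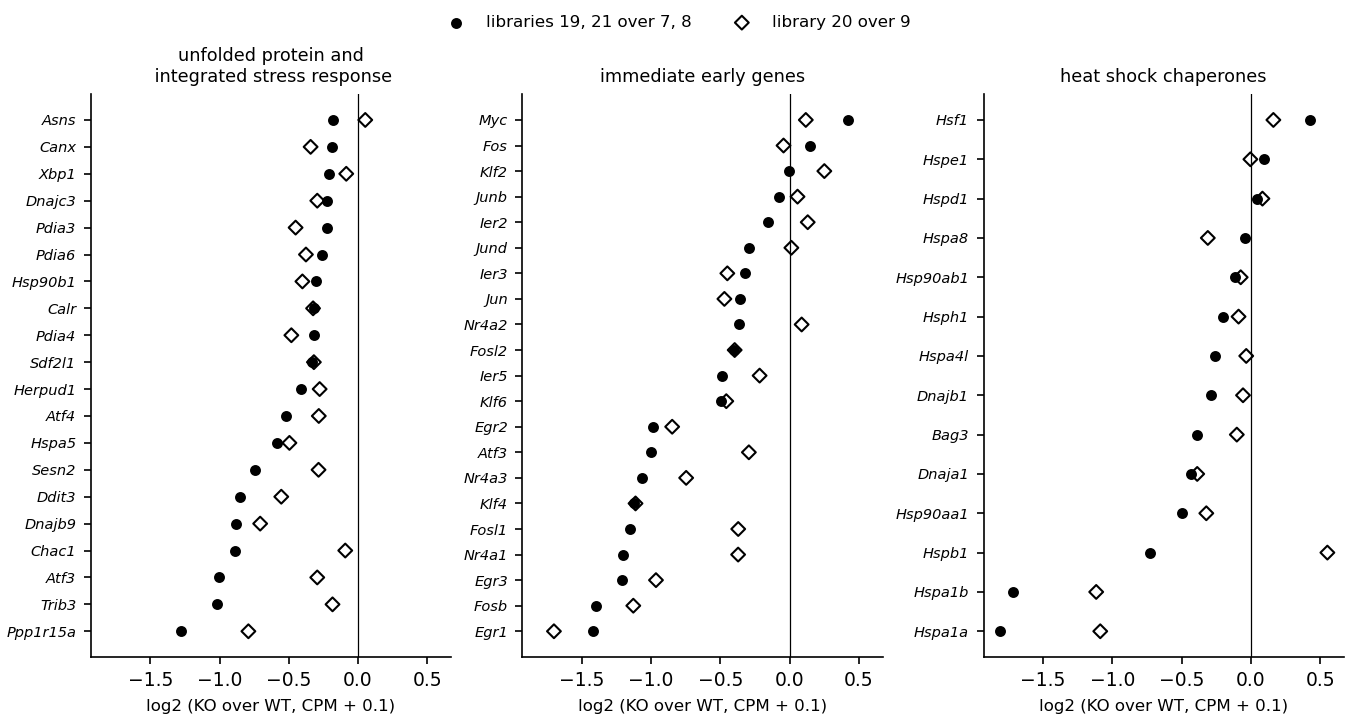
Each gene of 3 stress lists has its log2 ratio of labelled knock-out over wild-type (CPM + 0.1) within the first library set (libraries 19 and 21 over 7 and 8, filled points) and in the second-set pair (library 20 over library 9, diamonds). All 20 unfolded protein and integrated stress response genes lie below 0 in the first set and 19 of 20 in the pair.

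Single genes changed in further lists, where 2.2% of all tested genes were called. Among 19 alternative activation and repair genes, Hbegf and Klf4 fell and Chil3 rose. Selenok, an endoplasmic reticulum selenoprotein, was the only call among 20 selenoprotein genes: it measured 47.1, 54.8 and 44.5 CPM in labelled knock-out libraries 19, 20 and 21, against 64, 58.8 and 71.5 CPM in wild-type libraries 7, 8 and 9 (log2 difference -0.41 ± 0.10, adjusted p = 0.041, edgeR). Without library 19, 21, 7 or 9 it was not called (adjusted p between 0.129 and 0.2193). Nlrc4, the inflammasome sensor partner for bacterial flagellin, measured 37.9, 27.1 and 41.9 CPM against 98.5, 93.3 and 115 CPM in wild-type (-1.52 ± 0.26, adjusted p = 0.00191), while Gsdme of the same list rose. Of 13 mitochondrially encoded mRNAs, mt-Atp6, a subunit of the ATP synthase, fell: it measured 11.4, 13.3 and 13.1 CPM against 21, 17.1 and 23.3 CPM in wild-type (-0.70 ± 0.17, adjusted p = 0.0324). It lost the call without library 19, 20, 21, 7 or 9 (0.05501 to 0.18). Its copy Gm10925 is identical over 678 aligned bases, and multiply aligned reads were left out. The counts of mt-Atp6 can therefore cover only part of its reads, and its level is uncertain. Summed with the copy, it measured 24.3, 25.8 and 27.6 CPM against 41.4, 35 and 46.4 CPM in wild-type. Cd300lf, an inhibitory receptor that binds lipids of dying cells, was 1 of 3 calls with overlapping groups, at 42.6, 39.6 and 53.2 CPM against 106, 77.4 and 52.1 CPM in wild-type (-0.80 ± 0.19, adjusted p = 0.0253; 0.05143 to 0.2332 without library 19, 20, 7 or 8).

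No gene was called in the lists for 44 interferon-stimulated genes, 24 NRF2 antioxidant targets, 14 genes of reactive oxygen production and removal, 18 classical activation markers, 21 Toll-like receptors and adaptors or 22 glycolysis genes. Their median log2 differences ran from -0.21 to 0.12. Over all tested genes 2.2% were called. Rsad2, the antiviral enzyme viperin, measured 3744, 7165 and 4198 CPM in labelled knock-out libraries 19, 20 and 21, against 8088, 5597 and 9381 CPM in wild-type libraries 7, 8 and 9 (-0.61 ± 0.55, adjusted p = 0.695, edgeR). Nos2, the inducible nitric oxide synthase, measured 1109, 1960 and 1328 CPM against 2305, 1746 and 3254 CPM in wild-type (-0.73 ± 0.86, adjusted p = 0.786). For both genes library 20 exceeded one wild-type library, so the groups overlapped. Hmox1, the haem oxygenase of the NRF2 response, measured 4359, 3397 and 4518 CPM against 6314, 6441 and 3358 CPM in wild-type (-0.39 ± 0.32, adjusted p = 0.651). Ptgs2, the inducible cyclooxygenase and 1 of 17 prostaglandin and leukotriene genes of which none was called, measured 255, 718 and 305 CPM against 870, 624 and 1454 CPM in wild-type (-1.21 ± 0.65, adjusted p = 0.439). Tlr2, a receptor for bacterial lipoproteins, did not overlap between groups, at 568, 592 and 566 CPM against 398, 462 and 470 CPM in wild-type, and was not called (0.38 ± 0.16, adjusted p = 0.292). With the library-set term 5 of the 44 interferon-stimulated genes, 8 of 24 NRF2 targets, 5 of 14 reactive oxygen genes, 8 of 18 classical activation markers, 7 of 21 Toll-like receptor genes and 3 of 22 glycolysis genes were called, where 16.2% of all tested genes were. Ptgs2 (-1.28, adjusted p = 0.003801) and Tlr2 (0.38, adjusted p = 0.01367) were among the genes called with that term. Without it, no gene was called either in the lists for hypoxia, cholesterol synthesis, cholesterol efflux, chemoattractant receptors, presentation on MHC class I and II, lysosome and autophagy, complement, iron handling, matrix proteases, selenocysteine synthesis, and S or G2 and M phase. Of all lists without a call, the 23 G2 and M phase genes had the lowest median log2 difference of pathway genes (-0.43), with 23 of 23 lower within the first library set (median -0.69) and 11 of 23 between libraries 20 and 9 (0.01). The 22 collagen and matrix genes had the highest (2.12), and their summed level was 148.6, 307.9 and 150.7 CPM in labelled knock-out libraries 19, 20 and 21, against 151.4, 142.5 and 128.5 CPM in wild-type libraries, so that only library 20 was high. With the library-set term 6 of these 22 genes were called, all higher.

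Of 57 tested markers of cell types other than macrophages, 5 were called higher and 1 lower (10.5%, against 2.2% of all tested genes). In bulk libraries fewer cells of a type and less RNA per cell cannot be told apart. Of 15 neutrophil and precursor markers tested, Ltf, Ngp, Camp and Chil3 rose, all of them granule or secreted proteins. Ltf, lactoferrin, measured 7.72, 6 and 7.36 CPM in labelled knock-out libraries 19, 20 and 21, against 2.5, 3.65 and 3.41 CPM in wild-type libraries 7, 8 and 9 (1.14 ± 0.17, adjusted p = 0.000475, edgeR), and Ngp, a neutrophil granule protein, measured 17.1, 16.9 and 15.1 CPM against 5.6, 8.47 and 9.3 CPM (1.07 ± 0.16, adjusted p = 0.000511). Both were separated without overlap. Camp, the antimicrobial cathelicidin, measured 3.6, 3.39 and 3.32 CPM against 1.72, 2.41 and 1.85 CPM in wild-type (adjusted p = 0.0463; 0.07785 to 0.2568 without library 19, 20, 21, 7 or 9). Chil3, a chitinase-like protein also made by alternatively activated macrophages, measured 16.1, 18.1 and 19.1 CPM against 12.6, 12.2 and 12 CPM (adjusted p = 0.0221; 0.056 to 0.1171 without library 20, 21, 7, 8 or 9). The list's summed level overlapped, at 999.7, 801 and 1026 CPM in the labelled knock-out against 833.9, 916.2 and 697.5 CPM in wild-type.

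Fabp4, a fatty acid-binding protein that macrophages also express, was the only tested adipocyte marker and fell, with 8.92, 8.09 and 10.4 CPM in labelled knock-out libraries 19, 20 and 21, against 37, 29.9 and 17.5 CPM in wild-type libraries 7, 8 and 9 (-1.62 ± 0.30, adjusted p = 0.00375, edgeR; 0.06445 without labelled knock-out libraries 13, 16, 19 and 22). The adipocyte markers Lep, Cidec and Adipoq had no read. Hba-a1, an alpha-globin gene, had 38 counts over the labelled knock-out libraries and 1 over wild-type, a ratio of 35.05 (95% counting interval 5.923 to 1421; adjusted p = 0.0266, and 0.0532 to 0.1004 without library 19, 21, 7, 8 or 9). Stromal markers were high in 1 library: their sum was 24.29, 135.3 and 30.98 CPM in labelled knock-out libraries 19, 20 and 21, against 26.57, 24.76 and 34.09 CPM in wild-type libraries. Col1a1, the chain of type I collagen, stood at 40.1 CPM in library 20 and between 0.812 and 3.32 CPM in the other 5. Without the library-set term none of 12 stromal markers was called. With it 5 were, all higher, where 16.2% of all tested genes were called. At 0, 4 and 24 h Col1a1 stood at 10.3, 15.6 and 16.6 CPM in second-set labelled knock-out libraries 14, 17 and 23. It reached at most 3.57 CPM in the remaining libraries of those times.

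The called genes were not spread evenly over the genome. Chromosome 17 held 89 of them, 9.04% of its 984 tested genes, of which 45 were higher and 44 lower in the labelled knock-out. Chromosome Y had 1 call among 11 tested genes (9.09%). Of the other chromosomes with a call, the next shares were 3.4% on chromosome 18 and 3.1% on chromosome 6, and chromosome 8 had 0.525%. On chromosome 17 the share was 20.3% between 0 and 10 Mb, 9.16% between 20 and 30 Mb and 15.9% between 70 and 80 Mb. Hspa1a, Hspa1b, Nlrc4, Dusp1, Qpct, Fgd2, Synj2, Rnps1, Atp6v0c and Hmga1 all lie on chromosome 17 and were called. Around Selenow on chromosome 7, by contrast, 1 of 480 tested genes within 20 Mb was called (0.208%, against 2.25% elsewhere). That gene was Ryr1, a calcium-release channel, at 0.186, 0.242 and 0.302 CPM in labelled knock-out libraries 19, 20 and 21, against 1.17, 0.85 and 0.441 CPM in wild-type libraries 7, 8 and 9 (-1.75 ± 0.34, adjusted p = 0.00627, edgeR; 0.05692 without library 19 or 0.06379 without library 7).

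The same labelled comparison was made at the other times in the same fit, each with its own libraries, and called 274 genes at 0 h (1.52%; 118 higher, 0.653%, and 156 lower, 0.863%), 224 at 4 h (1.24%; 91 higher, 0.503%, and 133 lower, 0.735%) and 216 at 24 h (1.19%; 110 higher, 0.608%, and 106 lower, 0.586%). Of the 397 calls at 8 h, 138 were also called in the same direction at 0 h (34.8% of the 8 h calls and 50.4% of the 0 h calls), 156 at 4 h (39.3% and 69.6%) and 142 at 24 h (35.8% and 65.7%). None was called in opposite directions, 89 were called at all 4 times, and 187 (47.1%) at 8 h only. Npy differed by 5.91, 8.13, 8.66 and 10.93 on the log2 scale at 0, 4, 8 and 24 h, and Rpl34 by 2.73, 2.81, 2.71 and 2.73. Osbpl3 differed by 0.57 at 0 h and 1.94 at 4 h, before 3.56 at 8 h and 2.46 at 24 h. For none of Npy, Rpl34 and Osbpl3 was the change of the difference between 8 h and another time called. For Osbpl3 the adjusted p of that change was 0.1035 against 0 h and 0.6921 against 4 h (edgeR). Among the 253 genes lower in the labelled knock-out at 8 h, 111 (43.9%) had risen in wild-type between 0 and 4 h by the same test and 71 (28.1%) had fallen, against 28.2% and 34.8% of all tested genes.

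Whether a difference at 8 h departed from that at another time was tested as an interaction. It did for 8 genes against 0 h (0.0442%) and 14 against 4 h (0.0774%) by edgeR's quasi-likelihood test with Benjamini-Hochberg adjustment. It did for none against 24 h, where DESeq2 called 38. Against 24 h, 805 of 18083 genes had an unadjusted p under 0.05 by edgeR, no more than that threshold would pass with no difference. That count does not show that the differences at 8 h and 24 h were alike. With the library-set term 489 genes were called against 24 h. Against 4 h, Hspa1a differed by -1.56 at 8 h and by 0.61 at 4 h, an interaction of -2.17 on the log2 scale (adjusted p = 0.002536), and Hspa1b by -1.50 and 0.71 (-2.22, adjusted p = 0.00217). Both lay higher in the labelled knock-out at 4 h, where neither was called, and lower at 8 h. Levels at 4 h were low. Hspa1a measured 3.89, 4.25 and 4.5 CPM in labelled knock-out libraries 16, 17 and 18, against 2.69, 2.42 and 3.15 CPM in wild-type libraries 4, 5 and 6. Ppp1r10, a nuclear targeting subunit of protein phosphatase 1, differed by -0.73 at 8 h and 0.21 at 4 h (-0.94, adjusted p = 0.00217), with levels at 8 h of 52.8, 58 and 57.2 CPM in the labelled knock-out against 97.9, 84 and 96.2 CPM in wild-type. Tagap1, which has a near-identical relative, differed by -1.71 at 8 h and -4.71 at 4 h (3.01, adjusted p = 0.0009836). Tagap1 measured 5.27, 4.92 and 5.71 CPM at 8 h in the labelled knock-out against 13, 12.5 and 26.4 CPM in wild-type. Summed with its relative Tagap, it measured 38.8, 65.3 and 42 CPM against 53.5, 45.35 and 105.7 CPM in wild-type. That sum overlapped between the groups, with a log2 difference of -0.49 at 8 h. These 4 interactions against 4 h stayed called when any 1 of the 6 libraries at 8 h was left out.

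The calls of further interactions were lost without single libraries. That of Ppp1r10 against 0 h (-0.68) was lost without library 19, 20, 21, 7 or 9 (adjusted p between 0.08601 and 0.18). Dusp10 differed by -0.12 at both 0 and 4 h and by -1.64 at 8 h (interactions -1.52 and -1.52, adjusted p = 0.04019 and 0.0221), and both were lost without library 19, 20, 21 or 7 (adjusted p up to 0.1634). Tob1, an antiproliferative partner of the deadenylase complex, measured 4.53, 5.11 and 6.01 CPM at 8 h in labelled knock-out libraries 19, 20 and 21, against 13.2, 11.6 and 10.6 CPM in wild-type libraries 7, 8 and 9, and differed by 0.05 at 0 h and 0.04 at 4 h; its interactions were lost without library 19, 20, 7 or 8 (up to 0.1751). Nabp1, a single-stranded DNA-binding protein, measured 27.2, 31.5 and 33.8 CPM against 72, 55.2 and 51.5 CPM in wild-type and differed by 0.23 at 0 h; its interaction was lost without library 19, 20 or 7 (up to 0.07045). In each of these genes every labelled knock-out library lay below every wild-type library at 8 h. Osm differed by -0.03 at 4 h and -1.32 at 8 h, and its interaction was lost without library 19, 20, 21, 7 or 8 (0.0721 to 0.1863). Fes, in the other direction, differed by 0.36 at 0 h and 1.40 at 8 h, an interaction of 1.05 that was lost without library 19, 20 or 7 (0.06003 to 0.06807). Without labelled knock-out libraries 13, 16, 19 and 22, no interaction was called against 0 h or 4 h.

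**Figure D5:**
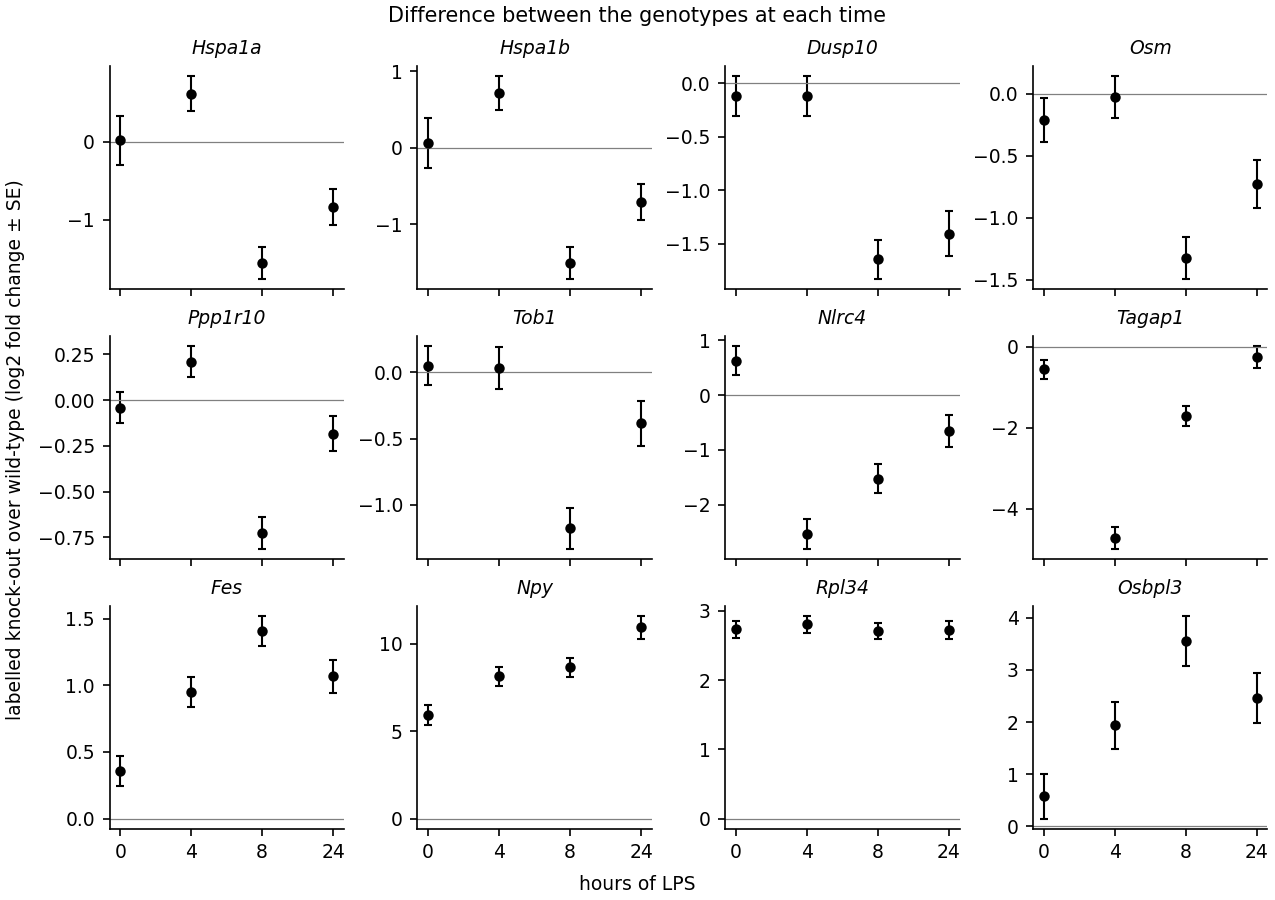
Log2 differences, labelled knock-out over wild-type, with their SE from the fit at 0, 4, 8 and 24 h for 12 named genes (3 libraries per group, 2 in the labelled knock-out at 24 h). Npy and Rpl34 differ at every time, while Hspa1a and Hspa1b change sign between 4 h and 8 h, with neither called at 4 h.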

How the data were processed

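Total RNA of bone marrow-derived macrophages was sequenced as read pairs with DNase treatment on the column during extraction, as the labels' protocols state. The authors deposited raw counts, 1 value per gene and library. Per the file headers these come from featureCounts 2.0.1 with the Ensembl release 101 annotation of GRCm38, run on HISAT2 alignments (version not given). The submitters' processing notes also name DESeq2. Counting ignored strand, let a pair count for every gene it overlapped and left out multiply aligned reads, so antisense, overlapping and near-identical genes are uncertain. No column of per-sample values was left unused.

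From the counts, 1 edgeR 4.0.16 model (R 4.3.3) of 8 group means over 23 libraries was fitted to the 18083 of 55401 genes that filterByExpr kept, with TMM scaling, quasi-likelihood F-tests and Benjamini-Hochberg adjustment over all tested genes; calls have an adjusted p under 0.05. Log2 differences are unshrunk, and SE is the difference divided by the square root of F. The procedure was tested on simulated data that held no library sets and no labelled knock-out library with a deviating Selenow level. That test therefore does not cover these features. DESeq2 1.42.0 and limma 3.58.1 were alternatives, besides other scalings, filters, thresholds and library choices; the fit of only the 8 h libraries without library 19 was chosen after seeing the data. Gene symbols came from GENCODE mouse release M21.

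Genes were named by a rule: Selenow, the 12 largest rises and falls among called genes of a mean level no lower than 5 CPM whose groups stayed apart, the 6 smallest p in each direction, up to 4 called members of each list or 3 uncalled ones of highest level, called genes within 20 Mb of Selenow and the top 6 of each interaction; predicted names and pseudogenes were only counted, except where the text says otherwise. The members and lists were chosen with earlier results of these data known. The library sets were found from the data. No pair of 8 h libraries agreed within sampling noise.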

Additional observations from a re-analysis of the deposited data

Results flagged for a closer look

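The results here had a difference between the labelled knock-out and wild-type libraries at 8 h that departed from the difference at another time by a test of the interaction (edgeR's quasi-likelihood test with Benjamini-Hochberg adjustment, n = 3 libraries in each group). Values are the log2 difference at 8 h less that at the other time.

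Against 0 h, the interaction was -1.18 for Nabp1, -1.52 for Dusp10, -1.23 for Tob1, -2.15 for Nlrc4 and -0.68 for Ppp1r10, and 1.05 for Fes. Abca5, a lipid transporter of the ABC family, had -2.56 and Asb4, a ubiquitin ligase adaptor, -7.23. Asb4 differed by -0.31 at 8 h and by 6.92 at 0 h, at a mean of 0.142 CPM over the 8 h libraries. Leaving out library 20 or 7 ended the calls of Abca5 (adjusted p 0.06003 and 0.06554 as lowest and highest) and Asb4 (0.06003 and 0.07506), that of Ppp1r10 against 0 h was lost without library 19, 20, 21, 7 or 9 (0.08601 to 0.18), and the call of Nlrc4 was lost without any 1 of the 6 libraries at 8 h (0.05438 to 0.146).

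Against 4 h, the interaction was -2.17 for Hspa1a, -2.22 for Hspa1b, -0.94 for Ppp1r10, -1.52 for Dusp10, -1.30 for Osm, -1.22 for Tob1 and -3.31 for Arc, and 3.01 for Tagap1. Sesn2, a stress-induced inhibitor of mTORC1, had -1.33. It measured 51.2, 69.3 and 59.7 CPM in labelled knock-out libraries 19, 20 and 21, against 105, 81.5 and 84.5 CPM in wild-type libraries 7, 8 and 9, and differed by -0.59 at 8 h (adjusted p = 0.0642) and by 0.74 at 4 h; its interaction was lost without library 19, 21 or 7 (0.0738 to 0.09701), and that of Arc without library 19 or 7 (0.07753 to 0.08695). Sh3d19, an adaptor protein gene, had 5.93. At 8 h it had 232 counts over the labelled knock-out libraries and 1 over wild-type, a ratio of 214 (95% counting interval 38.03 to 8489). The predicted genes Gm20481, Gm49719, Gm6548 and Gm7367 had -1.83, 2.55, -0.93 and 1.31; the call of Gm6548 was lost without library 19 or 21 (0.0738 to 0.09216) and that of Gm7367 without library 20 or 7 (0.06794 to 0.07753). The calls of Sh3d19, Gm20481 and Gm49719 were kept when any 1 of the 6 libraries at 8 h was left out. Gm49719 and Gm6548 have near-identical relatives. Summed with its relative, Gm49719 measured 21.66, 32.58 and 21.59 CPM at 8 h in the labelled knock-out, against 18.75, 15.32 and 33.71 CPM in wild-type. That sum overlapped between the groups, with a log2 difference of 0.16. The sum over Gm6548 and its relatives differed by -0.05 at 8 h. Genes outside the naming rule, such as Abca5, Asb4, Sh3d19 and these predicted genes, were named after their values were seen.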

How the results depend on the processing

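No paired analysis was possible because the libraries carry running numbers and no number is shared between groups; the library-set term rests on sets found in the data and gives no replicate pairs. The 397 calls at 8 h became 660 with DESeq2 (251 higher, 409 lower), 219 at an adjusted p under 0.01, 160 when tested against a fold of 1.5, 179 without labelled knock-out libraries 13, 16, 19 and 22, 94 with only the 8 h libraries and without library 19, 2931 with the library-set term and 2650 in the first library set. Leaving out 1 library at 8 h gave 226 to 446. The share of higher calls was 36.3%, against 48.9% with the set term. RLE scaling gave 396, upper-quartile scaling 399, no filter 370, a filter at 1 CPM 375, limma-voom 383, only the 6 libraries 293 and the count without the genes closest to Selenow (20 Mb) was 398. Selenow was called without the 4 libraries (-1.29, adjusted p = 5.744e-05, edgeR) and with only the 8 h libraries and without library 19 (-1.28, adjusted p = 0.01158). The libraries left out were singled out by their Selenow levels, so these p-values are no test of Selenow. Leaving out 1 library gave -1.29 to -0.68. The 8 interactions against 0 h became 196 with DESeq2, 2302 with the set term and 0 without the 4 libraries, and 0 to 8 without 1 library; the 14 against 4 h became 52, 574 and 0, and 8 to 22; the 0 against 24 h became 38 with DESeq2, 489 with the set term, 1 with RLE scaling and 1 with the filter at 1 CPM, and 0 to 1 without 1 library. The causes were not tested. Of the named differences and counts recomputed, Tnf (0.02, not called) changed sign: it was -0.0216 with limma-voom, -0.0208 with the set term and -0.0878 in the first library set, and -0.63 to 0.57 without 1 library, never called. No other recomputed result changed sign. Of 66 named genes called at 8 h, 48 kept the call in all 6 fits without 1 library and 18 lost it in at least 1. Without the 4 libraries, 20 named genes lost their call, Cav1 among them (adjusted p = 0.0606). With 3 libraries per group, of which 1 per group belongs to the second set and 1 labelled knock-out library has a Selenow level near wild-type, the spread within groups limits which differences can be called.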
